A study of Mus musculus with 12 samples.

Results

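The comparison sets 4 stem libraries against 4 progenitor libraries of the adult mouse dentate gyrus, 8 of the 12 libraries in the series. They were chosen by their labels, as the libraries of cells positive for the LPA1-GFP reporter. All 8 came from mice of 8 weeks with the genotype LPA1-GFP, from the line Tg(Lpar1-EGFP)GX193Gsat. The line had a mixed FVB/N-Swiss Webster origin and was rederived into C57BL/6. Its transgene places GFP under regulatory sequence of Lpar1, the gene of a lysophosphatidic acid receptor, so reporter light stands for the transgene and not for the receptor protein. Stem libraries held sorted cells with the markers LPA1-GFP+EGFR+Prominin1+. Progenitor libraries held the other 3 combinations of GFP+ cells (EGFR+ without Prominin-1, Prominin-1+ without EGFR, and neither), and 1 of these is written "EGF-" in the labels. The labels do not give the proportions in which the 3 were joined. RNA of 1000 cells was amplified for each library, and the labels describe polyadenylated RNA. Each of the 4 replicates gave both populations, per the design text, with no word on the animals behind a replicate. The p-values therefore measure how these libraries spread, and some of that spread may be technical.

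In the subgranular zone of the dentate gyrus, stem cells of radial shape are mostly quiescent and express glial and Notch pathway genes. They give rise to intermediate progenitors, which express Eomes and divide, and these to young neurons, which build a neuronal cytoskeleton. The tissue also holds astrocytes, oligodendrocytes, vascular cells, microglia and the macrophages of the brain borders, all of which can enter a sort.

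Library totals recovered from the values were 8693282 to 12948644 reads in stem and 14873117 to 22854036 in progenitor. The listed genes held nearly all of these reads, so the totals need not be the full sequencing depth. Of the listed genes, 8455 to 9700 were above 0 per library. Each value below is a TMM-scaled RPKM (reads per kilobase of exon, relative to the library total and scaled by a trimmed mean of M-values), given for replicates 1 to 4 in order. Fold changes are differences of log2(RPKM + 1), stem minus progenitor, with their standard error (SE), and understate the change of low genes. Of 10749 listed genes, the 7767 with at least 1 RPKM in at least 4 of the 8 libraries were tested with limma. A gene is called where the Benjamini-Hochberg adjusted p was under 0.05. A library stood far from the other 3 of its group in 20 of 138 sets of values examined, and in 18 of the 20 it was stem replicate 2 or progenitor replicate 1. On the first principal component, with 54.3% of the variance, stem lay at -64.2 to -34.9 and progenitor at 27.4 to 83.2. On the second, with 21.5%, progenitor replicate 1 lay at -59.9 and the other 3 progenitor libraries at 30 to 33.4. On the third, with 9.4%, stem replicate 2 lay at -39.4 and no other library below -8.8.

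Stem and progenitor cells differed in 1386 of 7767 genes (17.8%), with nearly as many higher as lower. In stem, 695 genes were higher (8.95%) and 691 lower (8.9%), and the median log2 fold change of all tested genes was -0.01. In bulk samples such as these, fewer cells of a type and less RNA per cell cannot be told apart. The values of the groups did not overlap in 1988 genes (25.6%), 1002 with stem above and 986 with stem below. The called rises were larger than the falls at the extremes: 49 higher and 10 lower genes passed 4 on the log2 scale, although the medians were 1.78 and -1.59. Among the largest rises were genes of macrophages, and among the largest falls genes of young neurons, oligodendrocytes and pericytes. Fitting all 12 libraries gave 617 calls, of which 615 were among the 1386; in that fit the niche libraries share the estimate of the spread. The count of lower genes dropped to 438 without progenitor replicate 2 and to 457 without progenitor replicate 3, and the count over both directions rose to 1834 without progenitor replicate 1.

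**Figure D1:**
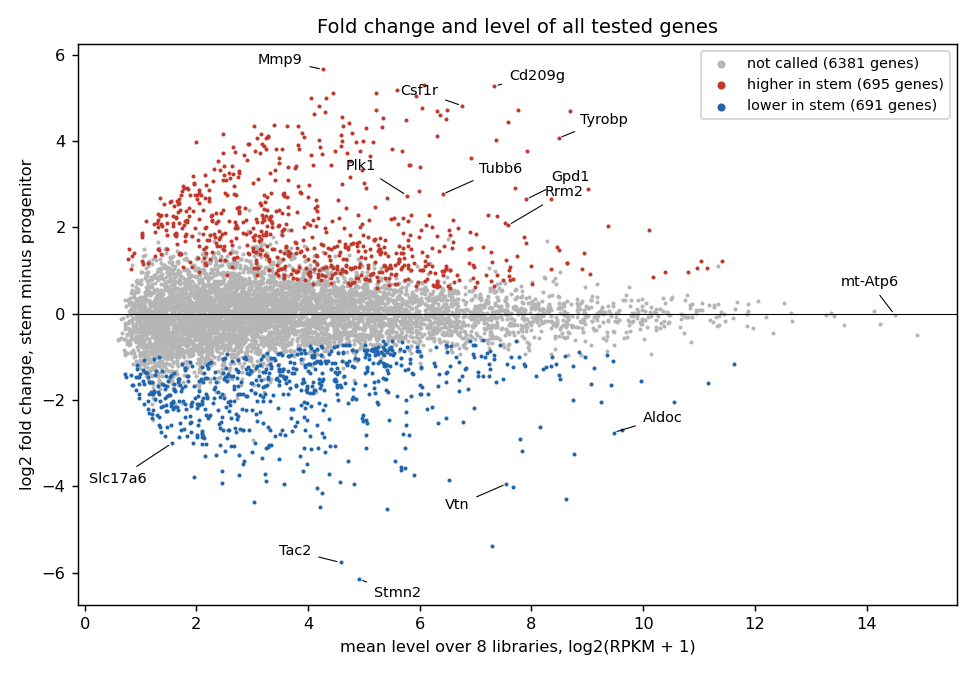
Log2 fold change (stem minus progenitor, y axis) of the 7767 tested genes against their mean level over 8 libraries (log2(RPKM + 1), x axis). Red points are the 695 genes called higher, blue points the 691 called lower and grey points the genes not called; Mmp9 and Stmn2 lie at the 2 ends.

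Among neural stem cell genes, calls were mostly lower in stem. Of 34 genes of neural stem cells and radial glia, 20 were among the listed genes, and all 20 were tested. Of these, 1 was higher, 4 were lower and 15 were not called, with a median of -0.28. The lower ones were 20% of the list, against 8.9% of all tested genes. As 17 of the 20 fold changes were negative, the label of the stem libraries was not matched by higher levels of this list, and the groups are called here by their labels. The call that was higher, Sox1, a transcription factor of neural precursors, was at 23, 21.4, 28.5 and 40.6 in stem and at 15.8, 12.1, 14 and 19.2 in progenitor. The groups did not overlap, but the change of 0.83 ± 0.26 (adjusted p = 0.0493) lost its call in 14 of 18 other settings, among them the replicate block (0.0637), the fit of 12 libraries (0.464) and leaving out stem replicate 1, 3 or 4 or progenitor replicate 2, 3 or 4 (0.0566 to 0.139).

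The 4 lower genes act in or downstream of the Notch, BMP and Wnt pathways. Id4, an inhibitor of helix-loop-helix factors (ENSMUSG00000021379, GRCm38 chromosome 13, 48261228 to 48266026), was at 11.8, 8.89, 15.8 and 11.7 in stem and at 88.8, 44.3, 38.4 and 49.3 in progenitor, a change of -2.06 ± 0.29 (adjusted p = 0.00107). Every stem value lay below every progenitor value. Hes1, the Notch target that represses proneural genes (ENSMUSG00000022528, chromosome 16, 30064384 to 30067796), was at 11.6, 11.4, 11.1 and 14.1 against 33.9, 51.0, 27.2 and 38.2, a change of -1.53 ± 0.24 (0.00168, and 0.0573 in the fit of 12 libraries). Id3, a BMP target, changed by -1.85 ± 0.47 (0.0204), which was not called without stem replicate 2 (0.0581) or 4 (0.0569). Wnt8b, a Wnt ligand of the medial pallium, was at 1.31 in stem replicate 4 and at most 0.0523 in the other 3, against 2.57 to 8.24 in progenitor (-2.03 ± 0.43, 0.00801).

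Genes that mark neural precursors in general were present in both groups. Fabp7, a fatty acid binding protein of radial glia, was at 723, 563, 1111 and 1003 in stem and at 2334, 1031, 1456 and 1650 in progenitor, with a change of -0.92 ± 0.30 that was not called (adjusted p = 0.0586). Sox9, a glial and stem cell factor, was at 130 to 214 in stem and 175 to 246 in progenitor (-0.21 ± 0.21, 0.572). 7 more genes were picked after their values were seen, as well-known precursor genes. Of these, Sox2 was at 47.5 to 77.8 against 41.4 to 55.8 (0.29 ± 0.21, 0.388), with a 95% interval of the difference from -0.16 to 0.75. The intermediate filament gene Nes was at 1.81 to 4.43 against 2.87 to 4.59 (interval -0.95 to 0.51), and Vim, of another such filament, at 89.8 to 176 against 119 to 161 (-0.52 to 0.54). Changes of Pax6 (-0.32 ± 0.24), Msi1 (-0.30 ± 0.25), Emx2 (-0.05 ± 0.19) and Neurog2 (-0.01 ± 0.26) were not called either. The sort marker Egfr was at 30.5 to 44.9 in stem and 1.2 to 11.7 in progenitor, which restates the sort and is no finding. The other sort markers, Lpar1 and Prom1, were absent from the 10749 listed genes and were not removed by the filter on level. Their levels could therefore not be set beside the sort.

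**Figure D2:**
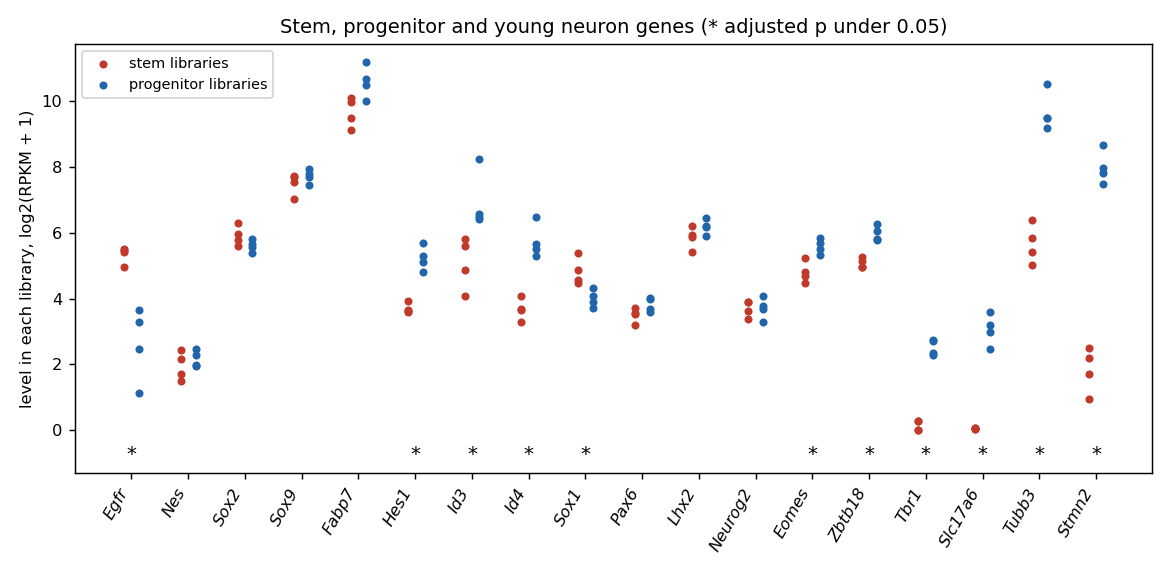
Level of 18 genes in each of the 8 libraries (log2(RPKM + 1), y axis), from stem and precursor genes on the left to young neuron genes on the right; red points are stem and blue points progenitor libraries, and an asterisk marks an adjusted p under 0.05. Nes, Sox2, Sox9, Pax6, Lhx2 and Neurog2 overlap between the groups, while Tbr1, Slc17a6, Tubb3 and Stmn2 do not; Egfr was used for sorting.

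Some neurogenic transcription factors were lower in stem. Of 11 tested, 3 were lower (27.3%, against 8.9% of all tested genes), with a median of -0.35, and all 11 fold changes were negative. Without progenitor replicate 3 or 4, 1 was called lower. Tbr1, a factor of postmitotic neurons, was at 0, 0.216, 0 and 0.216 in stem and at 5.74, 4.08, 5.52 and 3.86 in progenitor, a change of -2.38 ± 0.31 (adjusted p = 0.000680). Eomes, the factor of intermediate progenitors, was at 24.6, 21.1, 26.9 and 36.8 against 50.3, 39.2, 44.2 and 56.6. Its change of -0.79 ± 0.22 (0.0325) was not called with the replicate block (0.052), with 12 libraries (0.266), or without stem replicate 1, 2 or 3 or progenitor replicate 3 or 4 (0.0707 to 0.0971). Zbtb18, a repressor of progenitor genes, was at 30.2 to 37.9 against 54.5 to 76.9 (-0.90 ± 0.19, 0.00855, and 0.212 with 12 libraries). The factor genes Zbtb20 (-0.10 ± 0.32) and Lhx2 (-0.32 ± 0.22) were not called.

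Genes of cell division were higher in stem. Of 30 mitosis genes tested, 28 were higher, with a median of 1.84, against 8.95% of all genes called higher and an overall median of -0.01. Plk1, a kinase that drives entry into and passage through mitosis (ENSMUSG00000030867, chromosome 7, 122159439 to 122169873), was at 180, 77.6, 161 and 171 in stem and at 12.4, 18.4, 25.2 and 28.3 in progenitor, a change of 2.74 ± 0.33 (adjusted p = 0.000513). The lowest stem value, of replicate 2, was above the highest progenitor value. Bub1b, of the spindle checkpoint, was at 137, 57.7, 82.0 and 98.4 against 1.46, 14, 21.5 and 24.3 (2.91 ± 0.64, 0.0103, and 0.0752 with 12 libraries). Prc1, a bundler of midzone microtubules, rose by 2.28 ± 0.27 (0.000500), and Nusap1, a spindle protein, by 2.48 ± 0.54 (0.00935). The 2 genes not called were Bub3 (0.35 ± 0.22) and Kif18a (1.33 ± 0.55).

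Replication genes were higher with a smaller median than mitosis genes, a difference that was not tested. Of 27 tested, 16 were higher, with a median of 1.10, and all 27 fold changes were positive. With 12 libraries 9 were called, and for mitosis 19. Uhrf1, which carries DNA methylation through replication (ENSMUSG00000001228, chromosome 17, 56303321 to 56323486), was at 148, 115, 152 and 193 in stem and at 26.8, 32.7, 39.4 and 49.0 in progenitor, a change of 2.02 ± 0.24 (adjusted p = 0.000493). The groups did not overlap. Cdc6, which loads the replicative helicase, rose by 1.99 ± 0.39 (0.00561), Mcm5, a subunit of that helicase, by 1.94 ± 0.39 (0.00621), and Pole, the leading strand polymerase, by 1.84 ± 0.30 (0.00243). Tipin (0.44 ± 0.26) and Orc6 (0.03 ± 0.24), of the fork and of the origin, were not called. Among cyclins of G1, their partners and cell cycle inhibitors, 4 of 18 were higher (22.2%) and 1 lower (5.56%), against 8.95% and 8.9% of all tested genes (median 0.61). Cdk6, a kinase of early G1, was at 250, 184, 306 and 292 against 63.7, 112, 96.6 and 108 (1.44 ± 0.24, 0.00267), while its relative Cdk4 was at 332 to 484 against 281 to 401 (0.41 ± 0.21, 0.213). Foxm1, the mitotic transcription factor, rose by 1.83 ± 0.42 (0.0122). Tob1, an antiproliferative gene, was the 1 lower gene (-0.87 ± 0.26, 0.0442), a call that any single library but progenitor replicate 1 removed when left out (0.0535 to 0.106), as did the replicate block (0.0732). For this list, 2 genes were called higher without stem replicate 1, 3 or 4 or progenitor replicate 2, and 7 without progenitor replicate 1.

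Since genes of replication and of mitosis moved together, some of their promoters are shown for the best known motifs of each class. Genes were picked only among called genes whose 250 bases before a start hold the motif, so every printed sequence has a match by selection. Sequences are from RefSeq on build GRCm38.p6, all on the plus strand, each a window of 100 bases within the 250 before a start that RefSeq gives the gene. A gene can have several such starts, and those used for Uhrf1, Cdc6, Cdca5 and Prc1 lie inside the span of the gene in the GENCODE annotation. Capitals mark matches to E2F letters (TTTGGCGC, TTTCCCGC, TTTGCCGC or TTTCGCGC, either strand) in the first 3 sequences. They mark the cell cycle homology region (CHR, letters TTTGAA, either strand) in the next 2. The last sequence, of the macrophage chemokine gene Pf4, has letters of the myeloid factor PU.1 (GAGGAAGT, either strand) in capitals.
Uhrf1, chr17:56304082-56304181: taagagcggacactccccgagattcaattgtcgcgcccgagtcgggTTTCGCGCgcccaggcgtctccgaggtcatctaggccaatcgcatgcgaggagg
Cdc6, chr11:98907967-98908066: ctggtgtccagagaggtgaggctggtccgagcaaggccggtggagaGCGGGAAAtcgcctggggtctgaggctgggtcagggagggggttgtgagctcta
Mcm5, chr8:75109314-75109413: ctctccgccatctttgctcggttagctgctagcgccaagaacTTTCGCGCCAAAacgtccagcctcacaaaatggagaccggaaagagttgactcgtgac
Cdca5, chr19:6084997-6085096: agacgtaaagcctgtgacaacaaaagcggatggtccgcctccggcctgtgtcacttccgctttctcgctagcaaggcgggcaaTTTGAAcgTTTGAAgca
Prc1, chr7:80294376-80294475: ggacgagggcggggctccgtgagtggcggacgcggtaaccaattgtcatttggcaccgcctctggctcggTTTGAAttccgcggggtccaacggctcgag
Pf4, chr5:90772335-90772434: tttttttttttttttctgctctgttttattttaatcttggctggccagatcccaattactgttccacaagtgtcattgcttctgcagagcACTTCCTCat
In Mcm5, 2 E2F matches on opposite strands overlap within the capitals, and Cdca5, a cohesin regulator of the mitosis list, holds 2 CHR matches. The change of Cdca5 was 2.64 ± 0.69 (limma, adjusted p = 0.0241), and was not called without stem replicate 1, 3 or 4 (0.0599 to 0.0659). Of 7767 tested genes, 5256 had a promoter in the table. E2F letters stood in 3 of 12 called replication genes with a promoter (25.0%), in 1 of 24 called mitosis genes (4.17%), in 3.46% of tested genes and in 2.16% of all 27025 genes with a promoter, counting a gene where any of its promoters held the letters. CHR letters stood in 9 of 24 called mitosis genes (37.5%) and 0 of 12 called replication genes, against 13% of tested genes and 18.3% of all genes with a promoter. They also stood in 6 of 13 called border macrophage genes (46.2%), so the share was not particular to mitosis. PU.1 letters stood in 1 of 18 called genes of the 2 macrophage lists below (5.56%) and in 3.10% of tested genes. A match is a run of letters and not evidence of binding.

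Macrophage genes had the highest median of the 36 lists with at least 5 tested genes. This list, of border-associated macrophages, the phagocytes of meninges and perivascular spaces, had 32 genes, of which 17 were among the listed genes. All 17 were tested and called higher, with a median of 4.69. Mmp9, a matrix metalloproteinase (ENSMUSG00000017737, chromosome 2, 164940780 to 164955850), was at 128, 292, 103 and 88.2 in stem and at 0.693, 3.33, 1.25 and 2.26 in progenitor. Its change was the largest rise of all called genes, 5.66 ± 0.41 (adjusted p = 8.9e-05). Every stem library lay far above every progenitor library. Cd163, a haemoglobin scavenger receptor, was at 90.2, 209, 43.4 and 63.4 against 0.447, 5.34, 1.35 and 5.49 (4.64 ± 0.58, 0.000599). Pf4 was at 1497, 5787, 1532 and 1454 against 42.8, 156, 58.6 and 107 (4.69 ± 0.51, 0.000361). Timd4, a receptor for phosphatidylserine, rose by 4.07 ± 0.65 (0.00201), and Igf1, a growth factor, by 3.10 ± 0.56 (0.00384). Cd163, Timd4 and Igf1 were picked from the list after their values were seen. Of 10 microglia genes tested, 8 were higher (median 3.49), among them Tyrobp, the adaptor of activating receptors, at 1060, 3893, 1193 and 949 against 58.8, 123, 68.5 and 112 (4.07 ± 0.44, 0.000354). Slc2a5, a fructose transporter of microglia, was at 0.305 to 4.16 against 0.347 to 5.12 (0.13 ± 0.55, 0.910).

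The amount of macrophage RNA varied widely inside the stem group. The summed level of the 17 border macrophage genes was 4461, 15782, 3825 and 3621 in stem and 196, 411, 180 and 299 in progenitor. Stem replicate 2 held the highest stem value for all 17 of these genes, for all 15 genes of Fc receptors, lectins and leukocyte surface proteins and for all 13 of MHC class I presentation. Over all tested genes it held the highest value in 31.6%. The same library held the lowest stem value for 27 of 30 mitosis genes and 19 of 27 replication genes, against 30.5% of all tested genes. Without it, 17 border macrophage genes were still called higher with a median of 4.20, and 27 mitosis genes with a median of 1.99. Progenitor replicate 1 held the lowest progenitor value for 12 of the 17 macrophage genes and 22 of the 30 mitosis genes, against 46.6% of all tested genes. Without it the medians of these lists were 4.31 and 1.64, with 17 and 29 genes called higher. What part macrophage RNA had in the other differences between the groups was not tested.

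**Figure D3:**
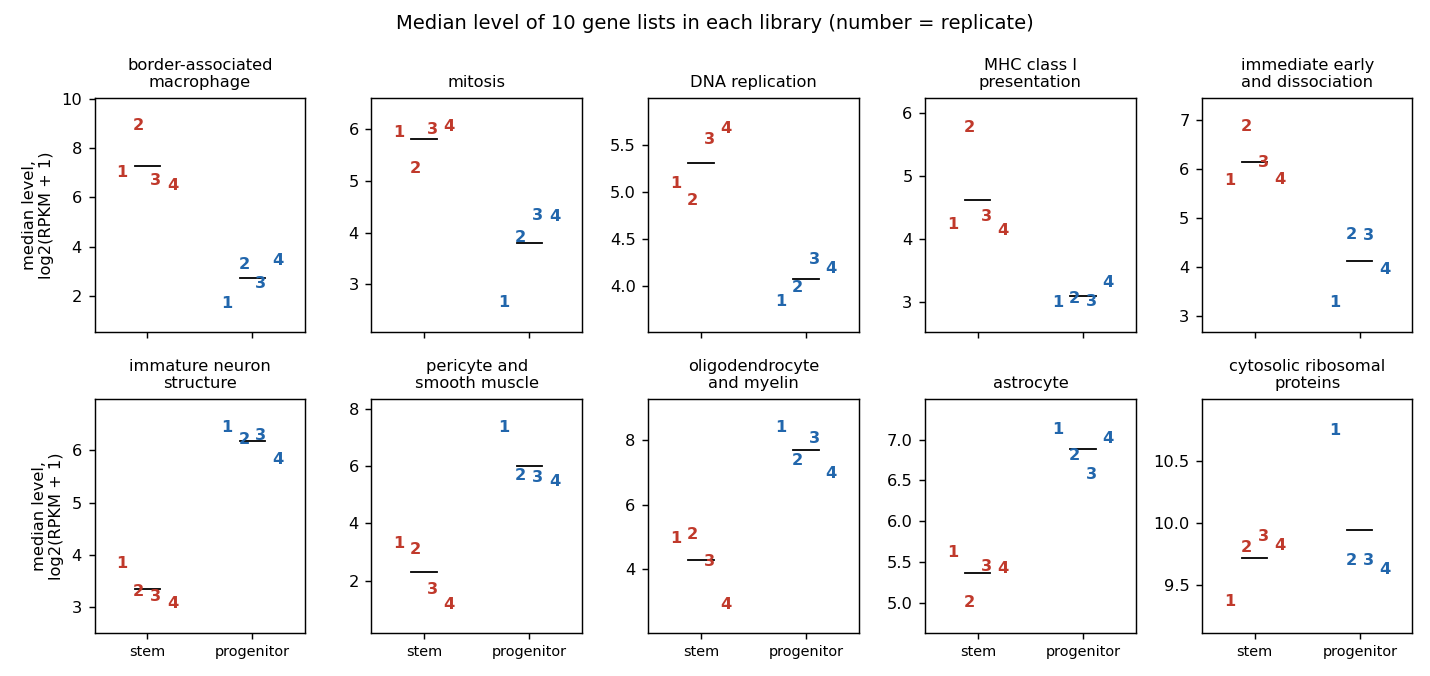
Median level of 10 gene lists in each library (log2(RPKM + 1), y axis, a different range in each panel); each number is a replicate, red for stem and blue for progenitor, and the bar is the mean over 4 libraries. Among stem libraries, replicate 2 lies highest for macrophage and MHC class I genes and lowest for mitosis. Among progenitor libraries, replicate 1 stands apart for pericyte and ribosomal protein genes.

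Genes that regulate and equip phagocytes were higher too. Of 18 myeloid transcription factors tested, 13 were higher (median 2.19). Spi1, which encodes PU.1 (ENSMUSG00000002111, chromosome 2, 91082390 to 91115756), was at 4.08, 18.5, 5.76 and 5.5 in stem and at 0.0799, 0.391, 0.187 and 0.474 in progenitor, a change of 2.67 ± 0.44 (adjusted p = 0.00231). The groups did not overlap. Klf2 (3.40 ± 0.54), Stat6 (3.10 ± 0.38) and Batf (2.96 ± 0.45) rose too, while Cebpd was at 6.31 to 45.3 against 6.39 to 12 (0.82 ± 0.48, 0.288). All 15 genes of Fc receptors, lectins and leukocyte surface proteins were higher (median 4.20), among them Ptafr, the receptor of platelet-activating factor (5.0 ± 0.52), and Cd48 (4.67 ± 0.44).

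Downstream of such receptors, 9 of 15 immune adaptor and kinase genes were higher (median 2.22). Lcp2, the adaptor SLP-76 (ENSMUSG00000002699, chromosome 11, 34046920 to 34092295), was at 30.3, 83.3, 26.0 and 20.9 against 0.132, 2.55, 1.84 and 2.54 (3.81 ± 0.49, adjusted p = 0.000721). Vav1, a signalling protein of leukocytes, rose by 3.75 ± 0.54 and Inpp5d, an inositol phosphatase, by 3.11 ± 0.51. Bcl10 (0.60 ± 0.25) and Sirpa (0.56 ± 0.32) were not called. Of 19 leukocyte integrin and actin regulators, 10 were higher and 1 lower, or 2 lower without progenitor replicate 1 (median 1.75), with the actin bundler Lcp1 at 148, 300, 86.6 and 59.5 against 0.707, 8.42, 5.63 and 9.37 (4.43 ± 0.62). All 5 tested genes of the phagocyte NADPH oxidase, lysozyme and related antimicrobial proteins were higher (median 2.26), with Slc11a1, a phagosomal metal transporter, at 4.10 ± 0.44 and Ncf4, an oxidase subunit, at 3.42 ± 0.37. With 12 libraries 2 of the 5 were called, and 3 without stem replicate 1 or 2 or progenitor replicate 2 or 3.

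Genes of innate sensing and of signals to other cells rose as well. In the list of Toll-like receptors and NF-kB factors, 8 of 13 genes were higher (median 2.46). Tlr4, the receptor for bacterial endotoxin (ENSMUSG00000039005, chromosome 4, 66827584 to 66930284), was at 36.5, 73.1, 19.0 and 27.9 in stem and at 1.04, 1.25, 1.25 and 2.33 in progenitor, a change of 3.88 ± 0.39 (adjusted p = 0.000328). Tlr13 (3.87 ± 0.63) and Tlr5 (3.00 ± 0.56) rose, and Rela did not pass the test (0.57 ± 0.22, 0.109). Of 28 chemokine, cytokine and receptor genes, 14 were higher and 2 lower (median 1.79), with 1 lower under the replicate block or without stem replicate 1 or 4. The monocyte chemoattractant gene Ccl2 was at 653, 1963, 456 and 325 against 18.1, 70.5, 36.7 and 52.3 (4.02 ± 0.55, 0.000942). Ccl8 was at 801 in stem replicate 2, 39.0 to 57.5 in the other stem libraries and 0.892 to 6.27 in progenitor (4.82 ± 0.85, 0.00328, and 0.0634 with voom). The chemokine receptor gene Ackr3 was at 13 to 35 against 9.29 to 21.4 (0.58 ± 0.34).

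Presentation and interferon genes showed the same direction with fewer calls, and their counts moved with the libraries. Of 13 MHC class I genes, 7 were higher (median 1.62). B2m, the light chain, was at 1889, 5425, 1604 and 1317 in stem and at 704, 585, 398 and 606 in progenitor (1.94 ± 0.40, adjusted p = 0.00774). H2-D1 was at 66.7 to 330 against 25.0 to 142 (1.74 ± 0.59, 0.0694). The H2 genes are near-identical copies, so reads may have been split between them. With 12 libraries 2 of the 13 were called. 3 were called without stem replicate 2 or progenitor replicate 4, 4 without stem replicate 3 or progenitor replicate 2 or 3, and 11 without progenitor replicate 1. Of 13 MHC class II and costimulation genes, 4 were higher (30.8%, against 8.95% of all tested genes, median 1.06). Cd83 was at 3.18 ± 0.76 and Cd80 at 2.54 ± 0.43, while Cd74, the invariant chain, was not called (1.68 ± 0.53, 0.0542). Of 25 interferon response genes, 5 were higher (20%, median 1.20), with Gbp7 at 2.49 ± 0.60 and Oasl2 at 2.34 ± 0.58 (adjusted p = 0.0577 without stem replicate 2). The 5 became 2 with 12 libraries or without stem replicate 2, 3 without stem replicate 1 or progenitor replicate 2 or 3, and 9 without progenitor replicate 1.

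Of 23 genes of lysosomes and lipid handling, 9 were higher and 2 lower (median 0.96). Ctsc, a protease of immune granules, was at 249, 672, 159 and 164 against 5.62, 18.5, 8.45 and 12.9 (4.50 ± 0.47, adjusted p = 0.000354). Cd63 (-0.59 ± 0.30) and Psap (0.00 ± 0.26) were not called. The 2 lower ones, Fabp3 (-3.72 ± 0.38) and Fabp5 (-1.24 ± 0.33, with 0.0694 without stem replicate 1 and 0.0716 without 2), bind fatty acids. Of 11 immediate early and dissociation genes, which rise when tissue is taken apart, 8 were higher (median 2.16). Fos was at 962, 1797, 586 and 462 in stem and 25.7, 255, 186 and 223 in progenitor (2.67 ± 0.68, 0.0213), and was not called without stem replicate 1 (0.0586) or 2 (0.0668). Egr1 was at 64.8 to 203 against 8.61 to 88.7 (1.17 ± 0.66, 0.272). Stem replicate 2 was highest for all 11 of these genes among stem libraries, as it was for macrophage genes, and the part of either in the other was not tested. The complement list held 4 tested genes, of which Itgam was higher (2.95 ± 0.41) and Clu and Cd59a lower.

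**Figure D4:**
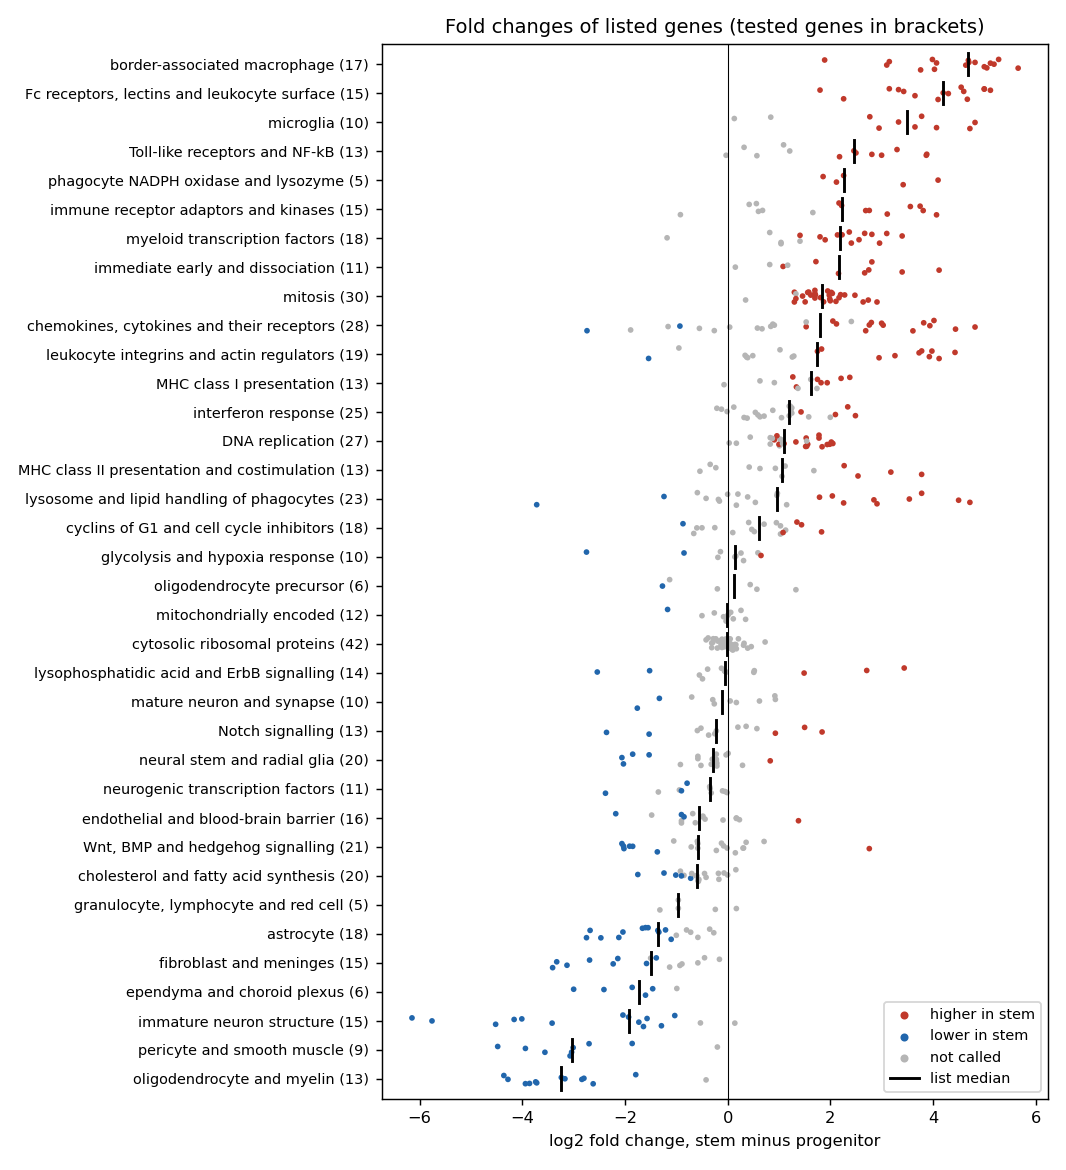
Log2 fold change (stem minus progenitor, x axis) of each tested gene in 36 lists, ordered by the list median (black bar); red and blue points are genes called higher and lower, grey points genes not called. Macrophage and leukocyte lists lie at the top with medians up to 4.69, oligodendrocyte and pericyte lists at the bottom with medians down to -3.24.

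Genes of young neurons were lower, and Stmn2 had the largest fall of all called genes. Of 15 tested genes of the immature neuronal cytoskeleton and surface, 13 were lower, with a median of -1.93, against 8.9% of all genes called lower. With 12 libraries 7 were called lower. Stmn2, a microtubule regulator of growing axons, was at 3.58, 4.70, 2.26 and 0.926 in stem and at 407, 253, 224 and 180 in progenitor, a change of -6.15 ± 0.36 (adjusted p = 2.1e-05). Cd24a, a surface glycoprotein of neuroblasts (ENSMUSG00000047139, chromosome 10, 43578284 to 43584265), was at 14.7, 8.99, 7.83 and 3.62 against 388, 204, 185 and 119 (-4.52 ± 0.41, 0.000213). The groups did not overlap in either. Tubb3, a neuronal tubulin, fell by 4.01 and Stmn4 by 4.16 on the log2 scale. The microtubule-associated genes Mapt (-0.53 ± 0.25) and Map2 (0.14 ± 0.28) were the 2 not called. Slc17a6, a vesicular glutamate transporter, was outside this list and listed at 0.0249 to 0.0538 in stem against 4.56 to 11 in progenitor (-3.00 ± 0.33, 0.000371). Of 10 mature neuron genes, 2 were lower (20%, and 1 was called higher without progenitor replicate 1): Snap25 (-1.76 ± 0.28) and Syp (-1.33 ± 0.37), of synaptic vesicle release. The call of Syp was lost with 12 libraries (0.541) and without stem replicate 2, 3 or 4 or progenitor replicate 2, 3 or 4 (0.0626 to 0.0887).

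Astrocyte and oligodendrocyte genes were lower too. Of 18 astrocyte genes, 12 were lower (median -1.35). Ttyh1, a chloride channel of glia, was at 19.2, 12.7, 20 and 19.3 in stem and at 150, 91.8, 78.3 and 99.7 in progenitor (-2.47 ± 0.25, adjusted p = 0.000304). Mt3, a metallothionein, was at 556 to 984 against 2454 to 3805 (-2.04 ± 0.24), while its relative Mt2 was at 333 to 793 against 715 to 1206 (-0.72 ± 0.29, 0.120). Glul, the glutamine synthetase gene, was at 145 to 331 against 154 to 332 (-0.27 ± 0.31). Of 13 oligodendrocyte and myelin genes, 12 were lower (median -3.24). Tspan2, a tetraspanin of oligodendrocytes (ENSMUSG00000027858, chromosome 3, 102734529 to 102801513), was at 8.38, 4.95, 12.9 and 2.52 against 183, 85.9, 150 and 61.3 (-3.94 ± 0.46, 0.000459), so it was not at 0 in any stem library. Among 6 oligodendrocyte precursor genes, 2 of which were called lower without stem replicate 1 and 1 higher without progenitor replicate 1, Tmem100 was lower (-1.27 ± 0.34; 0.0501 without progenitor replicate 2 and 0.0625 without 4) and Olig2 was at 9.37 to 18.7 against 1.21 to 11.2 (1.33 ± 0.48, 0.0829).

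Genes of vessels, meninges and ventricle lining followed. Of 9 pericyte and smooth muscle genes, 8 were lower (median -3.04). Rgs5, a pericyte regulator of G protein signalling, was at 43.9, 32.7, 6.78 and 3.05 in stem and at 196, 171, 144 and 187 in progenitor (-3.56 ± 0.65, adjusted p = 0.00397). Progenitor replicate 1 had a median of 7.37 for this list against 5.46 to 5.67 in the other 3, and 8 genes were also lower without it (median -2.63). Of 15 fibroblast and meninges genes, 8 were lower (median -1.5), with the proteoglycan gene Dcn at 3.92 to 24.1 against 52.8 to 109 (-3.41 ± 0.48). Of 6 genes of ependyma and choroid plexus, 5 were lower (median -1.73), and 3 without stem replicate 3 or 4. Of 16 endothelial and blood-brain barrier genes, 3 were lower (18.8%) and 1 higher (6.25%), against 8.9% and 8.95% of all tested genes (median -0.56). With the replicate block, or without any 1 library other than stem replicate 1 and progenitor replicate 1, at most 1 was called lower. Esam was at -2.18 ± 0.58 and Egfl7 at 1.38 ± 0.36. Esam was not called without stem replicate 2, 3 or 4 or progenitor replicate 1 or 2 (0.0518 to 0.0745), nor Egfl7 without progenitor replicate 3 (0.0554) or 4 (0.0600). None of the 5 genes of granulocytes, lymphocytes and red cells was called by limma or by voom, and 0 of them had an unadjusted p under 0.05; 1 was called lower without progenitor replicate 3. The alpha-globin gene Hba-a1, whose reads may be split with its copy Hba-a2, was at 1089, 365, 140 and 124 in stem and at 1690, 551, 340 and 311 in progenitor (-0.96 ± 0.71, adjusted p = 0.414). It was lower in stem in all 4 pairs of the same replicate number, and with the replicate block its adjusted p was 0.0508.

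**Figure D5:**
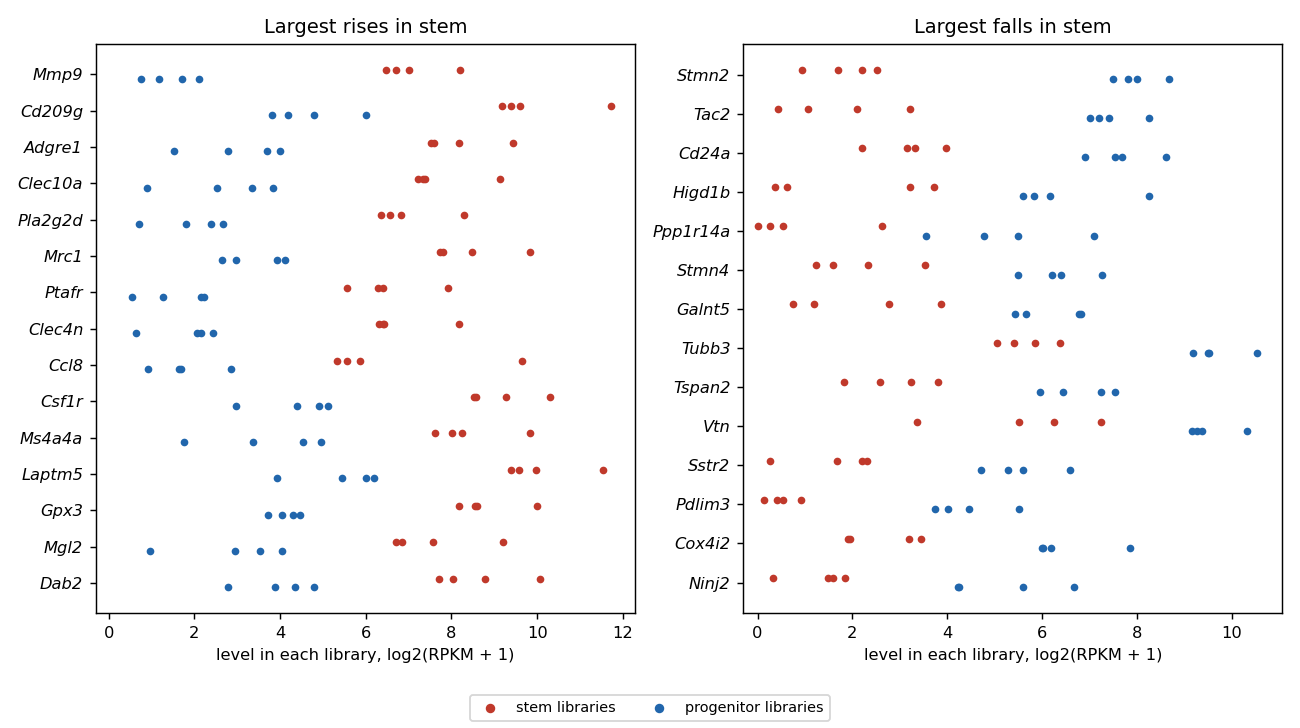
Level in each library (log2(RPKM + 1), x axis) of 15 genes with the largest rise (left) and 14 with the largest fall (right) in stem among called genes whose groups do not overlap; red points are stem and blue points progenitor libraries. Stem replicate 2 is the isolated highest stem point of Cd209g, Clec10a, Clec4n and Ccl8.

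Calls among developmental signalling genes went in both directions. Of 13 Notch pathway genes, 3 were higher (23.1%) and 2 lower (15.4%), against 8.95% and 8.9% of all tested genes (median -0.22). Without stem replicate 1 or 2, 1 was called higher, and with 12 libraries 1 was higher and 1 lower. The ligand gene Dll4 was at 7.01, 5.2, 8.34 and 8.58 in stem and at 0.0871, 2.20, 2.40 and 1.31 in progenitor (1.84 ± 0.41, adjusted p = 0.0102), and Rbpj, the nuclear effector, was higher by 1.5 ± 0.39 (not called without stem replicate 1 or 2 or progenitor replicate 2, 0.0519 to 0.0664). The targets Hes1 (above) and Heyl (-2.36 ± 0.41) fell. Of 21 Wnt, BMP and hedgehog genes, 6 were lower (28.6%) and 1 higher (4.76%), with a median of -0.58. Bmp2, a ligand, was at 13.7, 51.0, 15.2 and 5.87 against 1.36, 2.00, 1.16 and 1.67 (2.76 ± 0.52, 0.00476), while Smad7, an inhibitory target of the pathway, was lower (-2.02 ± 0.44), as was Wnt3, a ligand (-1.91 ± 0.46; 0.0514 without progenitor replicate 2 and 0.052 without 3). Ctnnb1, the Wnt effector, was at 76.1 to 98.8 against 69.1 to 87.0 (0.15 ± 0.18).

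Of 14 genes of lysophosphatidic acid and ErbB signalling, 3 were higher (21.4%) and 2 lower (14.3%), against 8.95% and 8.9% of all tested genes (median -0.06). The sort marker Egfr is 1 of the 3. Dusp6, a phosphatase induced by ERK signalling, was at 206, 435, 97.8 and 133 in stem and at 1.95, 39.6, 22.3 and 29.8 in progenitor (3.44 ± 0.76, adjusted p = 0.0100). Lpar6, another receptor of the ligand, rose by 1.49 ± 0.41 (0.0288), a call lost with 12 libraries (0.176) and without stem replicate 1 or 4 or progenitor replicate 2, 3 or 4 (0.0516 to 0.0741). The lower ones were Plpp3, a phosphatase that degrades lysophosphatidic acid outside cells, at 114, 78.4, 131 and 105 against 285, 319, 277 and 340 (-1.52 ± 0.20, 0.000781), and Agpat4, which acylates it (-2.54 ± 0.36, 0.00115). The groups did not overlap for either.

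Among metabolic genes, calls were mostly lower in stem, though the list medians differed in sign. Of 20 genes of cholesterol and fatty acid synthesis, 5 were lower (25%, against 8.9% of all tested genes, median -0.59), with Acsl3 at -1.75 ± 0.24 and Scd2 at -1.01 ± 0.23 (adjusted p = 0.0527 with the replicate block). 2 were called lower without stem replicate 2, and 3 with the replicate block or without stem replicate 1 or 4 or progenitor replicate 3 or 4. Of 10 glycolysis and hypoxia genes (median 0.15, 6 positive), 1 was higher, Ldha (0.65 ± 0.17), and 2 lower (20%). The 2 were Aldoc, also in the astrocyte list, and Slc2a1, also in the endothelial list, which lost its call in 10 of 18 other settings. With the replicate block, or without any 1 library other than stem replicate 1 and progenitor replicate 1, 1 was called lower. The call of Ldha was lost in each fit that left out a library other than progenitor replicate 1 (0.0525 to 0.0874) and with the replicate block (0.113). The 42 cytosolic ribosomal protein genes had a median of -0.01, with 0 calls by limma, 0 by voom and 0 with an unadjusted p under 0.05. All 42 were highest in progenitor replicate 1 within its group, and 5 were called higher in stem without it (median 0.25). The 12 mitochondrially encoded genes had a median of -0.01 and 1 call, mt-Nd3 (-1.17 ± 0.34, limma), which was lost with the replicate block (0.111) and without any 1 stem library or progenitor replicate 2 (0.0601 to 0.103). mt-Atp6, among the most abundant transcripts, was at 20309 to 25047 against 22339 to 24546 (-0.02 ± 0.18).

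Outside the lists lay 1120 of the 1386 calls, 518 higher and 602 lower. Some rises did not have their highest stem value in replicate 2. Gpd1, a glycerol phosphate dehydrogenase (ENSMUSG00000023019, chromosome 15, 99717515 to 99725005), was at 685, 341, 691 and 795 in stem and at 82.5, 95.7, 89.5 and 113 in progenitor (2.65 ± 0.27, adjusted p = 0.000328). Tubb6, a beta tubulin, was at 239, 207, 195 and 248 against 29.0, 23.3, 30.4 and 47.4 (2.77 ± 0.23, 0.000128). Pimreg, a mitotic regulator, was at 197, 135, 191 and 203 against 45.6, 38.3, 47.1 and 54.3 (1.94 ± 0.20, 0.000335, and 0.210 with 12 libraries). The groups did not overlap in these 3, which the rule for naming genes outside the lists required. Others followed the macrophage pattern: Gpx3, a glutathione peroxidase, was at 388, 1023, 376 and 286 against 18.7, 21.1, 12.1 and 15.4 (4.71 ± 0.36, 9.2e-05), and Pla2g2d, a secreted phospholipase, rose by 5.11 ± 0.50. Unc93b1, which carries Toll-like receptors to endosomes, rose by 4.32 ± 0.38.

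Among the falls outside the lists with the lowest p-values, Entpd2, an ectonucleotidase known from neural stem cells (ENSMUSG00000015085, chromosome 2, 25395874 to 25401321), was at 19.9, 11.6, 10.5 and 17.3 in stem and at 116, 219, 188 and 231 in progenitor (-3.58 ± 0.28, adjusted p = 9.6e-05). Ass1, of arginine synthesis, was at 13.8, 13.5, 22.3 and 20.8 against 167, 124, 167 and 173 (-3.11 ± 0.23, 8.9e-05). Every stem value of both genes was below every progenitor value, which the rule for naming genes outside the lists required. Scrg1 was at 60.2 to 96.4 against 432 to 837 (-2.90 ± 0.24, 0.000142), and Mturn, a regulator of neuronal differentiation, at 11.8 to 14 against 39.6 to 45.4 (-1.70 ± 0.19, 0.000371). Sema3c, a guidance molecule (-3.74 ± 0.36), Cntnap2, an adhesion protein of neurons (-3.49 ± 0.33), and Cldn10, a claudin (-2.20 ± 0.25), fell as well.

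Few genes were present in 1 group and missing in the other. With at least 3 reads in every stem library and 0 in every progenitor library there were 3 genes, and 25 with the reverse. The 3, named here because they are few, were AC132444.5, 5430427O19Rik and Fmr1nb, with 43, 75 and 104 reads over all stem libraries. Such a count depends on depth, and the recovered library totals were lower in every stem library than in every progenitor library.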

How the data were processed

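Polyadenylated RNA of sorted cells was sequenced in 12 libraries, of which the 4 stem and 4 progenitor libraries were compared. The deposited table is on a log2 scale, read as log2(RPKM + 1). The submitters' processing notes name GRCm38 (mm10). The sources used here name no aligner or counter and no use of strand, so overlapping antisense genes cannot be told apart. The 15 genes with the largest called changes in each direction were all annotated on the plus strand. Of 78 ribosomal protein genes looked for, 42 were listed, and of 63 mitosis genes, 30. Whether genes of the minus strand are missing from the deposited table was not tested. After the log was undone, 100% of genes above 0 gave whole reads in every library within a tolerance of 1e-05. For 1209 genes the exon length behind this was the annotated one and for 9301 it was found from the values, which is a weaker check. Library totals were recovered from the values, and the listed genes held 99.9987 to 99.9996% of them in the 8 libraries. Amplified reads carry no molecular identifiers, so depth covers counting error only.

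Genes with at least 1 RPKM in at least 4 of 8 libraries were kept. RPKM was divided by trimmed mean of M-values (TMM) factors from the recovered reads, 1 RPKM was added as pseudocount, and the log2 of this was fitted with limma 3.58.1 (R 4.3.3), with 1 mean per group, intensity trend and robust spread. P-values are two-sided and Benjamini-Hochberg adjusted over all 7767 genes at 0.05. The fit was tested on simulated data. Replicates of a group differed by more than sampling noise (chi-square over degrees of freedom at least 38.9 in stem and 41.6 in progenitor). Gene identifiers were matched to GENCODE annotation of GRCm38 for 10589 of 10749 genes.

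The series' design text says that the populations came from each of 4 replicates, so equal numbers pair a stem and a progenitor library. The correlations of their deviations over all tested genes were -0.126, 0.07, -0.018 and 0.001. Single lists differed from this. Of 13 oligodendrocyte genes, stem replicate 4 was lowest in its group for 13 and progenitor replicate 4 for 12, against 19.9% and 19.1% of all tested genes. Of 42 ribosomal protein genes, stem replicate 1 was lowest in its group for 41, and progenitor replicate 1 was highest for 42. The main fit did not use the pairing.

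The members, the 38 gene lists and the tests were chosen with earlier results of these data known. Named genes are the 15 largest called changes in each direction without overlap, and up to 5 called and 2 uncalled genes of each list. Outside the lists they are the called genes without overlap that had the 15 lowest p-values in each direction. The 5 most abundant genes, the sort marker and genes with a printed promoter are named too. Other names are marked in the text. Gene models without a proper symbol and pseudogenes are counted but not named, and some genes that the rule names are not reported here. Alternatives were all 12 libraries, a replicate block, other pseudocounts, filters and scalings, voom on the recovered reads, a fit without trend and robust spread, and leaving out each library.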

Additional observations from a re-analysis of the deposited data

Results flagged for a closer look

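In 20 of 138 sets of 4 libraries, the highest or lowest library stood apart from the other 3, by a gap that made up most of the set's range (Dixon's test at 95%). For independent sets of normal values, chance gives about 1 in 20. Here genes were examined as RPKM without the log, and the sets come from the same libraries, so that rate is no measure for the 20. 11 of the 20 were of stem replicate 2. Its median level was 5.77 for MHC class I presentation against 4.13 to 4.36 in the other stem libraries, 5.25 for mitosis against 5.94 to 6.05 and 7.33 for glycolysis against 7.67 to 7.71 (log2 scale). Its RPKM was 3384 for Cd209g (579 to 778 in the others), 560 for Clec10a (147 to 167), 310 for Pla2g2d (81.1 to 112) and 287 for Clec4n (78.5 to 85.1). It was 801 for Ccl8 (39.0 to 57.5), 905 for Ms4a4a (195 to 304), 2955 for Laptm5 (665 to 998) and 1023 for Gpx3 (286 to 388).

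In stem replicate 1 the median of cyclins of G1 and cell cycle inhibitors was 3.73 against 4.24 to 4.32, and Ppp1r14a, of the oligodendrocyte list, was at 5.15 RPKM against 0 to 0.445.

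7 of the 20 were of progenitor replicate 1. It had 8455 genes above 0 against 9608 to 9700 in the other progenitor libraries. Its median was 7.37 for pericyte and smooth muscle genes (5.46 to 5.67 in the others) and 10.7 for cytosolic ribosomal proteins (9.62 to 9.70). Its RPKM was 304 for Higd1b (47.2 to 70.7) and 231 for Cox4i2 (62.8 to 71.4), both expressed in pericytes. It was 1483 for Tubb3 (579 to 728) and 1272 for Vtn (571 to 657).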

How the results depend on the processing

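No named gene that was called, here or in an alternative, changed direction under the 18 alternatives, and 139 of the 186 called named genes lost no call. Fitting all 12 libraries gave 617 calls, 318 higher and 299 lower, in place of 1386, 695 and 691. With the replicate block 1085 genes were called, 552 higher and 533 lower, and 1054 of them were called without it in the same direction; the block removed the call of 14 of the 186 genes, and where it changed the count of a list and no value is given above, the count moved by 1 gene. The fit of 12 libraries removed 34 of the 186 calls. Leaving out 1 library gave 946 to 1834 calls, with 470 to 954 higher and 438 to 880 lower. Other pseudocounts, filters, scalings, voom (1276) and the fit without trend (1343) gave 1199 to 1394 calls. Scaling moved the median of all genes to between -0.026 and -0.013 among the 8 libraries.

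Recovered library totals were lower in every stem library, and listed genes under 1 RPKM in most libraries were not tested. Many genes of the lists went untested for another reason, as they were not among the 10749 listed genes. Of 52 replication genes, 27 were listed and all 27 tested, and of 28 microglia genes, 10 were listed and all 10 tested. The level of an absent gene is not known here.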
